A study of Mus musculus with 9 samples.

Results

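T cells were a small population of the ascites, the fluid of the peritoneal cavity, of the ID8-Def29/Vegf mouse model of ovarian cancer: 50 of the 6442 barcodes that passed the cell filter, or 0.776% (0.577 to 1.02%). The cells came from 1 single-cell library of ascites infiltrate, prepared with a droplet assay of 10x Genomics, and the labels give its genotype as B6_WT and name no treatment, age or number of animals. ID8 is a mouse ovarian surface epithelial tumour line, and its Def29/Vegf derivative was made to produce a beta-defensin and the angiogenic factor Vegf. Cultures of this line, 4 with the iron chelator deferiprone for 12 h and 4 with vehicle, were profiled in bulk in the same series and were not used here. Values are counts of unique molecular identifiers (UMIs), each standing for 1 captured transcript molecule.

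T cells were chosen by the UMIs of marker genes among barcodes with 500 or more UMIs, 200 or more genes and no more than 15% mitochondrial UMIs. A T cell had at least 2 UMIs over the 8 genes Cd3d, Cd3e, Cd3g, Lck, Lat, Cd2, Ms4a4b and Skap1, with at least 1 of them from a CD3 gene. It also had at most 1 UMI of the macrophage genes C1qa, C1qb and C1qc, none of the B cell genes Cd79a and Cd79b, and at most 1 UMI over Krt8, Krt18, Krt19, Wt1 and Upk3b. The levels of these genes are therefore a description of the rule and are not results.

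T cells recognise peptides held by MHC molecules through an antigen receptor that cannot signal by itself. The CD3 gamma, delta and epsilon chains and the zeta chain (Cd247) carry its signal into the cell, where the kinase Lck phosphorylates them, the kinase Zap70 binds the phosphorylated chains, and the adaptor Lat relays the signal. The coreceptor CD8 marks cytotoxic T cells, which read MHC class I and kill with perforin and granzymes, and the coreceptor CD4 marks helper and regulatory cells, which read MHC class II. Cytotoxic and memory CD8 T cells also store the chemokine Ccl5 and the granule membrane protein Nkg7.

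The CD3 genes that chose the cells lie together on chromosome 9 (GRCm38, GENCODE M21), with Cd3g at chr9:44969572-44980431 on the minus strand, Cd3d at chr9:44981786-44987339 on the plus strand and Cd3e at chr9:44998740-45009627 on the minus strand. Nkg7, the gene outside the rule that led the T cells, lies at chr7:43437073-43438249 on the plus strand. By the RefSeq starts, Cd3g and Cd3d are read away from each other from starts 1355 bases apart, and the start of Cd3e lies a further 27825 bases on. The stretches printed here, from RefSeq on GRCm38.p6, run 5′ to 3′ on the strand of each gene over the 180 bases between positions 250 and 71 before its start, and are shown because these genes define or lead the population. Capitals mark letters of 4 motifs searched on both strands: the RUNX core TGTGGT (or ACCACA), the ETS core AGGAAG (or CTTCCT), the E-box CAGNTG (or CANCTG) and the GATA core AGATAA (or TTATCT).
Cd3g, chr9:44980502-44980681, minus strand: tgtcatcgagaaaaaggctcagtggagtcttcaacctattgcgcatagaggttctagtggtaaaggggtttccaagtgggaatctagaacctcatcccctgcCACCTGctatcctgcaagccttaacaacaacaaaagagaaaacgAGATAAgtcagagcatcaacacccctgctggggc
Cd3d, chr9:44981536-44981715, plus strand: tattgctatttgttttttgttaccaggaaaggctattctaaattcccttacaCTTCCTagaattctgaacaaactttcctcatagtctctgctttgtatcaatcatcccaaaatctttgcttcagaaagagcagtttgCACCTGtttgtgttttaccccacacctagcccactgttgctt
Cd3e, chr9:45009682-45009861, minus strand: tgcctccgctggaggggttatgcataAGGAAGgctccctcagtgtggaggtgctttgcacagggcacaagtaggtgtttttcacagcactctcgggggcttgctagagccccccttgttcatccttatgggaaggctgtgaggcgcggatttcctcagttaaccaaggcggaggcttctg
Nkg7, chr7:43436888-43437067, plus strand: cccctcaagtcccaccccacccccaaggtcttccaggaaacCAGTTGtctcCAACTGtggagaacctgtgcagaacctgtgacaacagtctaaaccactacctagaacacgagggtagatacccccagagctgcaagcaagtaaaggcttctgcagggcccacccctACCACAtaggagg

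The Cd3g stretch held 1 E-box match and 1 GATA match, the Cd3d stretch 1 ETS and 1 E-box match, the Cd3e stretch 1 ETS match, and the Nkg7 stretch 1 RUNX match and 2 E-box matches, with no overlap between them. Of 32851 RefSeq promoter stretches of the same length, 10.4% held the RUNX letters, 21.5% the ETS letters, 35.1% the E-box letters and 7.73% the GATA letters. A match is a description of the letters in these windows and not a binding site.

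The T cells gave few UMIs per barcode. They held 505 to 2179 UMIs per barcode with a median of 754, 243 to 692 genes with a median of 335, and 0.173 to 3.23% mitochondrial UMIs with a median of 1.43%. The median over all filtered barcodes was 3300 UMIs, and that over the B lineage barcodes, defined further on, was 753. Summed over the 50 barcodes there were 41713 UMIs, so that 1 gene with 0 UMIs could still have had a level of up to 71.9 CPM (counts scaled to the summed UMIs of the class), that of 3 counts. By the same limit of 3, a gene seen in 0 of 50 barcodes could be detectable in up to 6% of them. The exact 95% interval reaches 7.11%. The labels describe a single library, so no test between groups was possible and no p-value is given. All intervals are 95% intervals and, like these limits, cover counting error only.

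Some T cell barcodes carried transcripts typical of other cells, whose part in the results was not tested. Free RNA, taken from barcodes of 1 to 50 UMIs and scaled by macrophage and tumour markers, was estimated at 21.9% (17.4 to 27.2%) of the UMIs of the T cells, and every value of free RNA given here uses that share. It was 13.4% (7.95 to 21.3%) in T cells of at least 1000 UMIs, and red cell markers put it at 10.7% (8.09 to 13.9%) without the 2 barcodes rich in haemoglobin. MHC class II UMIs (H2-Aa, H2-Ab1, H2-Eb1 and Cd74) summed to 258, of which 237 lay in 4 barcodes with 21, 28, 60 and 128 of them, while the other 46 barcodes held 21 in all and at most 7 each. Haemoglobin UMIs summed to 604, of which 547 lay in 2 barcodes with 170 and 377. The doublet caller Scrublet marked 89 of the 6442 barcodes (1.38%) and none of the 50 T cells, these 6 included. Levels in CPM that these barcodes move by over 1.5 times are given without them as well.

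**Figure D1:**
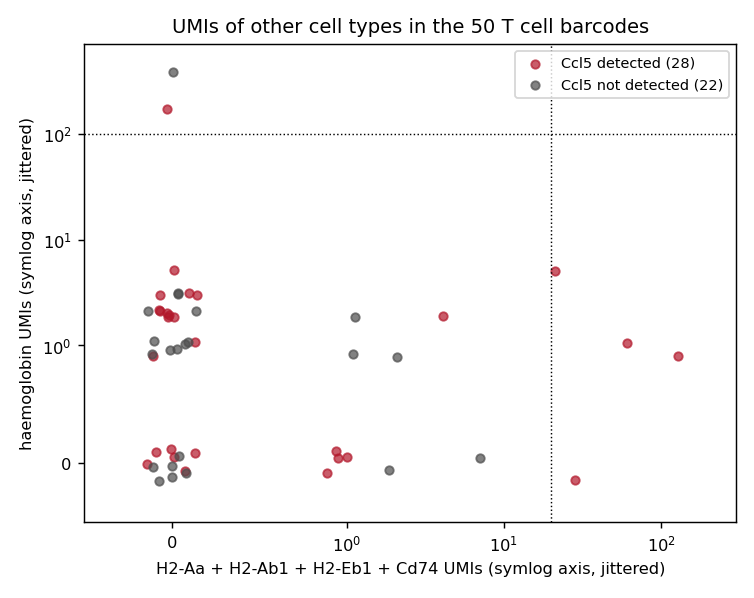
MHC class II UMIs (x axis) against haemoglobin UMIs (y axis) in each of the 50 T cell barcodes, both on symmetric log axes with a small jitter, with barcodes in which Ccl5 was detected in red and the others in grey. The dotted lines mark 20 and 100 UMIs: 4 barcodes lie to the right of the first and 2 above the second, and none lies beyond both.

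Among the genes of the rule, the CD3 chains gave 93 UMIs in the T cells. Cd3d had 54 UMIs in 36 barcodes (0 to 4 per barcode, median 1), Cd3g 34 UMIs in 28 barcodes (0 to 3, median 1) and Cd3e 5 UMIs in 4 barcodes (0 to 2, median 0). The identification of single cells rested on few molecules: 27 barcodes had 1 CD3 UMI, 12 had 2, 5 had 3, 4 had 4, 1 had 5 and 1 had 6. In 33 barcodes 1 CD3 gene was seen, in 16 barcodes 2, and in 1 barcode all 3. Ms4a4b, a membrane protein of the CD20 family found in T cells, had 19 UMIs in 14 barcodes, Lat 16 in 13, Lck 15 in 13, the adhesion receptor Cd2 7 in 7, and the adaptor Skap1 7 in 7.

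Barcodes just inside and just outside the rule both carried genes that it did not use. The 21 T cells with exactly 2 UMIs of the 8 genes had Ccl5 at 8067 CPM in 13 barcodes and Nkg7 at 520.5 CPM in 6. The 27 filtered barcodes with 1 CD3 UMI and no other UMI of the 8 genes had Ccl5 at 7761 CPM in 16 barcodes and Nkg7 at 779.8 CPM in 10. These 27 also held Cd74 at 5644 CPM and Gstm1 at 1708 CPM, against 3773 and 1171 CPM in the 21 T cells. In all, 87 filtered barcodes held a CD3 UMI, and 37 of them were not taken. A further 4 barcodes had at least 2 UMIs of the 8 genes but none of CD3, with Ccl5 at 27540 CPM and Nkg7 at 1899 CPM, each in 3 barcodes. Among the barcodes with a CD3 UMI, 5 were left out for C1q and 2 for keratin UMIs.

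**Figure D2:**
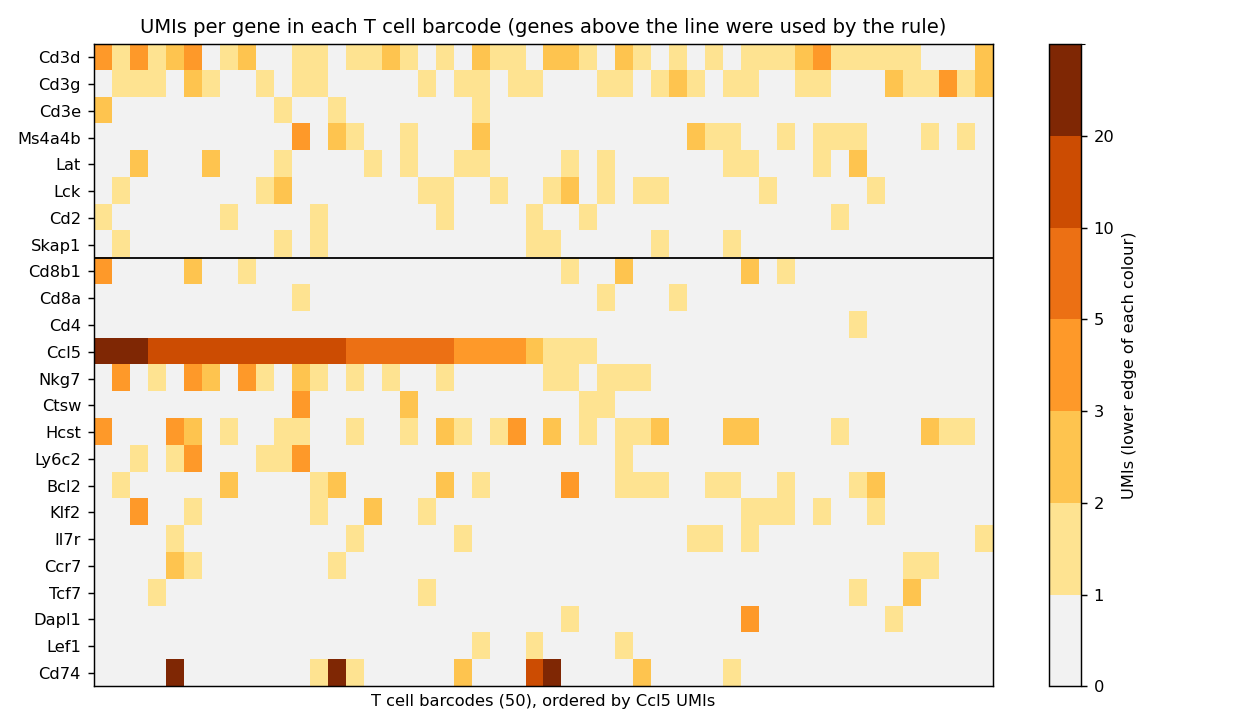
UMIs of 8 genes used by the rule (above the line) and of 16 other genes (below the line), in each of the 50 T cell barcodes (columns, ordered by Ccl5), with colour for the number of UMIs. Ccl5 ran up to 35 UMIs and was absent from 22 barcodes, most other genes gave 1 to 4 UMIs in a minority of barcodes, and Cd74 was concentrated in 4 barcodes.

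Antigen receptor signalling genes outside the rule were read against other cells of the same library. The other classes were gated by UMIs of marker genes and had no CD3 UMI: 87 B lineage barcodes (Cd79a and Cd79b), 106 dendritic barcodes (Flt3, Cd209a, Clec9a, Xcr1 or Zbtb46 with MHC class II), 1097 macrophage barcodes (C1q genes) and 3676 tumour-like barcodes (Krt8, Krt18, Krt19, Wt1 and Upk3b). Their median depths were 753, 1512, 1648 and 5003.5 UMIs. A gene counts as higher or lower when its level differed by at least 2 times, among genes whose mean over both classes was at least 50 CPM. Over all genes, 19.7% were higher and 20.8% lower in T cells than in macrophages, 19.1% higher and 14.0% lower than in dendritic cells, 17.0% higher and 11.8% lower than in B lineage cells, and 15.5% higher and 27.1% lower than in tumour-like cells. A gene nearly absent from either class passes this filter only through its level in the other, where it then has to be higher. Counts and median ratios over lists are therefore descriptions and not support, also where they are set beside the value over all genes.

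Of 26 genes of antigen receptor signalling and T cell identity, 21 had a UMI in the T cells, at a summed level of 3380.2 CPM, against 1933 CPM in B lineage cells, 1013 CPM in dendritic cells and 642 CPM in macrophages. Of the 13 that passed the filter against macrophages 12 were higher and none lower, with a median log2 ratio of 6.77, against 0.04 over all genes. Against B lineage cells, the other lymphocytes, 6 of 13 were higher and 1 was lower, with a median of 0.82, against 0.08 over all genes. Ptprcap, which binds the phosphatase CD45, had 15 UMIs in 13 T cells, or 359.6 CPM (201 to 593), against 517 CPM in B lineage cells, 18.1 CPM in dendritic cells and 0.511 CPM in macrophages. It thus marked both lymphocyte classes, and the T to B ratio of 0.695 (0.355 to 1.29) spans 1.

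Fyb, an adaptor that links the receptor to integrins, had 13 UMIs in 9 T cells, or 312 CPM, 11.4 times (2.59 to 104) the B lineage level of 27.2 CPM. The GTPase Rac2, which remodels actin in leukocytes, had 25 UMIs in 19 T cells, or 599 CPM (388 to 885), against 408 CPM in B lineage cells and 169.7 CPM in macrophages, a T to macrophage ratio of 3.53 (2.25 to 5.31). Coro1a, an actin regulator of leukocytes, had 17 UMIs in 16 T cells, and its 408 CPM stood against 408 CPM in B lineage cells and 410.1 CPM in dendritic cells. Rac2 and Coro1a were thus shared with other leukocytes, while several genes of lower count were not seen in B lineage cells. The surface protein Thy1 had 9 UMIs in 7 T cells, the costimulatory receptor Cd28 8 in 6, the kinase Txk 7 in 7, and Cd247 and Zap70 3 each in 3, and none of these 5 genes had a UMI in B lineage cells. Among the genes at 0 was Prkcq, a kinase that acts after the receptor, for which 0 of 50 leaves up to 71.9 CPM possible.

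Coreceptors were seen in a minority of the cells. Cd8b1 (chr6:71322788-71337494, plus strand), which encodes the CD8 beta chain, had 12 UMIs in 7 T cells, or 288 CPM (149 to 503), against 0 UMIs in B lineage and dendritic cells and 0.511 CPM in macrophages, where it came from 1 UMI. Cd8a, the alpha chain, had 3 UMIs in 3 T cells, and Cd4 had 1 UMI in 1. By these genes 10 of the 50 barcodes, a share with an interval of 10.03 to 33.7%, were CD8, 1 was CD4 (2.0%, 0.0506 to 10.6%), none was both and 39 (78.0%, 64.04 to 88.5%) showed neither. With a minimum of 750 UMIs the CD8 share was 36.0% (18.0 to 57.5%) of 25 T cells, and with 1000 UMIs 36.4% (10.9 to 69.2%) of 11. The CD8 barcodes had a median of 904 UMIs and those with neither 702, so the barcodes with a CD8 UMI were the deeper ones at the median.

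Few genes separated the CD8 barcodes from those with neither coreceptor beyond counting error. Nkg7 had 11 UMIs in 6 of 10 CD8 barcodes, or 1098 CPM (548 to 1965), and 13 UMIs in 10 of 39 with neither, or 419 CPM (223 to 717), so the intervals overlap. Ccl5 was alike in summed level, at 7986 CPM (6333 to 9940) in 5 of 10 CD8 barcodes and 7446 CPM (6516 to 8470.2) in 23 of 39 with neither. However, 1 CD8 barcode held 35 of the 80 UMIs, and the medians per barcode were 0.5 in CD8 and 3 with neither. Ly6c2, a surface antigen of memory CD8 cells and monocytes, had 8 UMIs in 3 CD8 barcodes, or 799 CPM (345 to 1574), and 4 UMIs in 4 of the others, or 129 CPM (35.1 to 330.1), and here the intervals do not meet, although the 8 UMIs came from 3 barcodes. Cd74 had 0 UMIs in the CD8 barcodes and 124 in the others, where the 4 barcodes rich in MHC class II lie.

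Ccl5 (chr11:83525778-83530518, minus strand), a chemokine that draws T cells, monocytes and other leukocytes, had a higher summed level in T cells than in every other class. It did not set single cells apart, since 22 T cells had none and 35 of 106 dendritic barcodes had a UMI of it. It had 311 UMIs in 28 of the 50 T cells (56.0%, 41.3 to 70.0%), with 0 to 35 per barcode and a median of 1.5. Its level was 7456 CPM (6650.0 to 8332) in T cells, against 313 CPM in B lineage cells, 2388 CPM in dendritic cells, 136 CPM in macrophages and 10.6 CPM in tumour-like cells. The T cell level was 3.12 times (2.68 to 3.63) that of dendritic cells, 23.8 times (15.6 to 38.1) that of B lineage cells and 54.8 times (46.4 to 64.9) that of macrophages. Free RNA would give 22.9 CPM in T cells. After each barcode was thinned to 500 UMIs, Ccl5 was seen in 56.0% of T cells, 2.30% of B lineage, 27.4% of dendritic, 1.37% of macrophage and 0.544% of tumour-like barcodes.

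Nkg7 led the genes outside the rule when T cells were set against all other filtered barcodes. It had 24 UMIs in 16 T cells (32.0%, 19.5 to 46.7%), with 0 to 3 per barcode and a median of 0, or 575 CPM (369 to 856). B lineage and dendritic cells had 0 UMIs, and macrophages had 0.511 CPM from 1 UMI. With 3 counts over the class as the floor, the T cell level was 14.1 times that of B lineage and 31.8 times that of dendritic cells. These folds leave out the counting error of the 24 UMIs. After thinning, Nkg7 was seen in 24.0% of T cells and in no barcode of the other 4 classes.

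**Figure D3:**
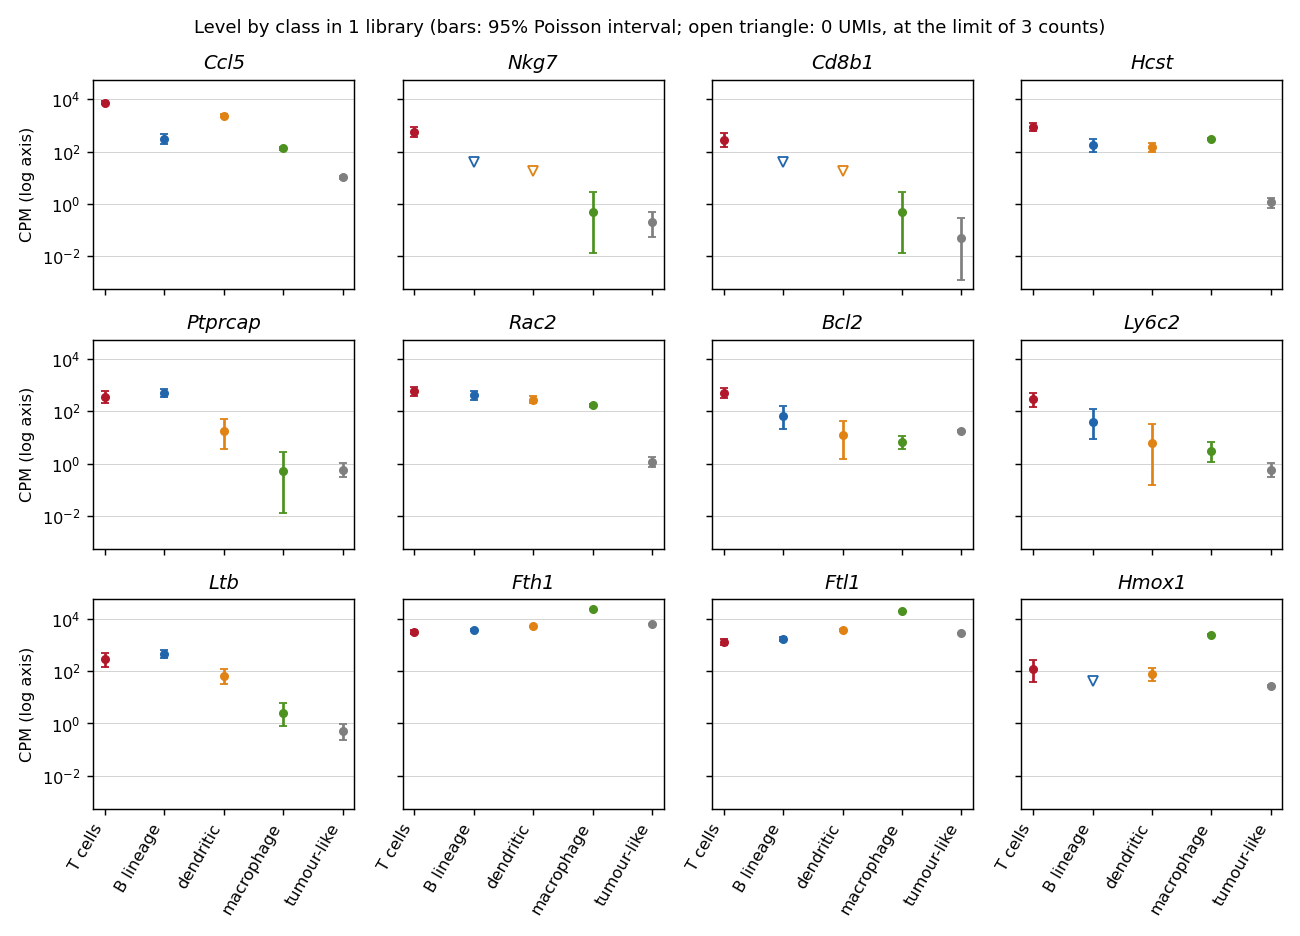
Level of 12 genes in T cells, B lineage, dendritic, macrophage and tumour-like barcodes, in CPM on a log axis, with 95% Poisson intervals; an open triangle stands at 3 counts for a class with 0 UMIs. Ccl5 stood at 7456 CPM in T cells, against 2388 CPM in dendritic cells, Ptprcap and Ltb were shared with B lineage cells, and Fth1 and Ftl1 were highest in macrophages.

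**Figure D4:**
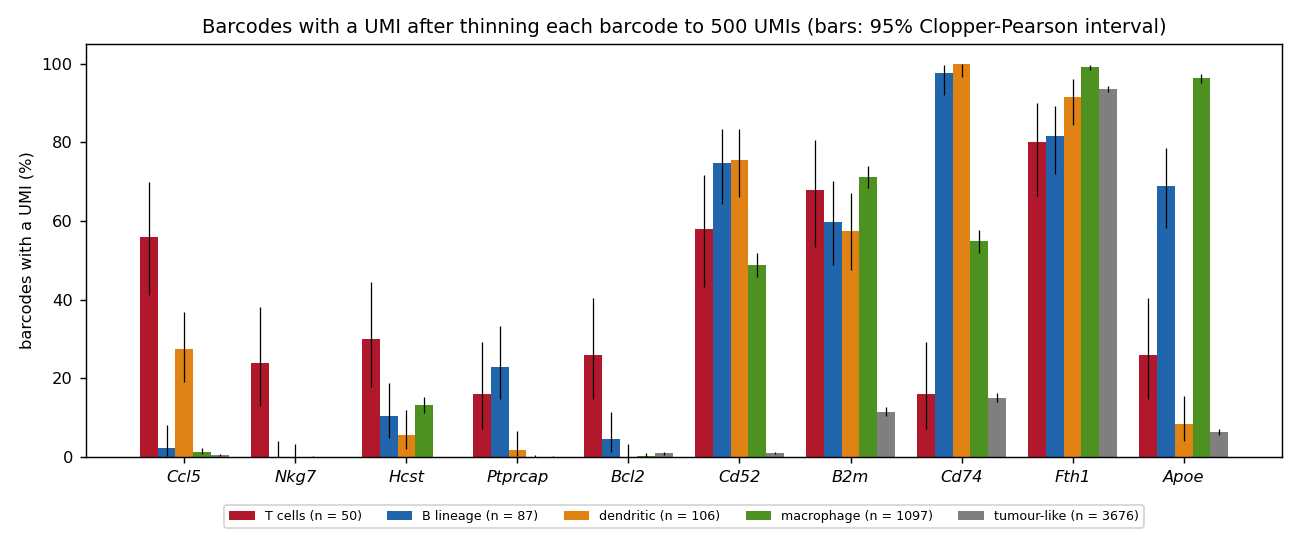
Share of barcodes with a UMI of 10 genes after each barcode was thinned to 500 UMIs, by class, with 95% Clopper-Pearson intervals. Ccl5 was seen in 56.0% and Nkg7 in 24.0% of T cells at this equal depth, and Fth1 was seen in 80.0% of T cells and 99.2% of macrophages.

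Nkg7 was found mainly where Ccl5 was. Of the 16 barcodes with Nkg7, 13 also had Ccl5; it had 21 UMIs in 13 of the 28 barcodes with Ccl5 (46.4%, 27.5 to 66.1%) and 3 UMIs in 3 of the 22 without (13.6%, 2.91 to 34.9%). Ly6c2 had 11 UMIs in 6 of the barcodes with Ccl5 and 1 UMI in 1 of those without. Hcst, Bcl2 and Rac2 differed less, with Hcst in 14 of the 28 and 9 of the 22, Bcl2 in 7 and 8, and Rac2 in 10 and 9. These splits share 50 barcodes and were chosen after the values had been seen.

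Apart from Ccl5 and Nkg7, cytotoxic genes were scarce. Of 20 genes of the effector programme 11 had a T cell UMI, and Ccl5 and Nkg7 made up most of their 364 UMIs. Ctsw, a cathepsin of cytotoxic cells, had 8 UMIs in 4 T cells, or 192 CPM (82.8 to 378). It had 0 UMIs in B lineage, dendritic and macrophage barcodes. Its T cell level was 125 times the same floor in macrophages, a fold that leaves out the counting error of the 8 UMIs. Among granzymes, Gzmm had 3 UMIs in 1 barcode and Gzmk 2 in 1. Gzma, Gzmb, Prf1 (perforin), Ifng and Fasl had 0 UMIs, which allows up to 71.9 CPM each. Against macrophages 3 of the 8 genes passing the filter were higher and 4 lower, against 19.7% and 20.8% of all genes. Ccl4, a chemokine shared with myeloid cells, had 95.9 CPM in T cells and 495 CPM in macrophages.

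Receptors of natural killer cells were mostly at 0. Of 14 markers of natural killer and innate lymphoid cells, 2 had a T cell UMI each, and Ncr1, Klrb1c, Eomes, Klra8, Klre1, Gzma and Prf1 had none. Hcst (chr7:30417712-30419854, minus strand), which encodes the signalling adaptor DAP10 of the receptor NKG2D, held most of the UMIs of a second list, of 16 receptor and adaptor genes, of which 7 had a T cell UMI, 58 in all. It had 37 UMIs in 23 T cells (0 to 4 per barcode), or 887 CPM (625 to 1223). That was 5.01 times (2.60 to 10.3) the B lineage level of 177 CPM, 6.13 times (3.57 to 10.7) the dendritic level of 145 CPM and 3.02 times (2.11 to 4.22) the macrophage level of 293 CPM. Klrd1 (CD94) had 5 UMIs in 4 T cells, or 119.9 CPM, against 229 CPM in dendritic cells, and 55.6 CPM from 2 UMIs without the barcodes rich in MHC class II. Tyrobp, the adaptor DAP12 of myeloid and natural killer cells, had 8 UMIs in 5 T cells, of which 6 lay in the barcodes rich in MHC class II, and stood at 192 CPM with them and 55.6 CPM without.

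The remaining leading genes were lymphocyte or leukocyte genes. AW112010, an interferon-inducible transcript of lymphoid and myeloid cells, had 22 UMIs in 13 T cells, or 527 CPM, 7.02 times (4.27 to 11.0) the macrophage level. Bcl2, which keeps lymphocytes alive, had 21 UMIs in 15 T cells, or 503 CPM (312 to 769.6), against 68.1 CPM in B lineage cells, 12.1 CPM in dendritic cells and 6.64 CPM in macrophages. Its T cell level was 7.39 times (2.71 to 25.1) that of B lineage cells and 75.8 times (36.2 to 165) that of macrophages. Others led against all other barcodes together but were not highest in T cells. Cd52, a surface glycoprotein of leukocytes, had 95 UMIs in 37 T cells, or 2277 CPM, below the 3540.1 CPM of B lineage cells and the 3999 CPM of dendritic cells. Arhgdib (an inhibitor of small GTPases), Gmfg (an actin regulator) and Ptpn18 (a tyrosine phosphatase) had T cell levels of 575, 743 and 935 CPM, and their ratios to macrophages of 1.39 (0.885 to 2.08), 1.10 (0.743 to 1.57) and 0.904 (0.641 to 1.24) span 1. H2-K1 and the immunoproteasome subunit Psmb8 were the last of the 12, at 671 and 503 CPM.

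Genes of naive and memory cells were present at low counts. Of 11 such genes 10 had a UMI in the T cells, 48 UMIs in 30 barcodes, at a summed 1151 CPM in T cells, 490.2 CPM in B lineage cells, 253 CPM in dendritic cells and 289 CPM in macrophages. Of those passing the filter, 6 of 7 were higher and 1 lower than in B lineage cells, against 17.0% and 11.8% of all genes. Against dendritic cells 6 of 7 were higher and 1 lower (19.1% and 14.0% of all genes). Against macrophages 5 of 6 were higher (19.7% of all genes). Genes nearly absent from the other class had to be higher here. Klf2, a transcription factor of resting and recirculating T cells, had 13 UMIs in 10 T cells, or 312 CPM (166 to 533), against 123 CPM in B lineage cells and 209 CPM in macrophages. Il7r, the IL7 receptor, had 7 UMIs in 7 T cells and 0 in B lineage cells. The homing receptor Ccr7 had 6 UMIs in 5 (144 CPM, and 83.4 CPM from 3 UMIs without the barcodes rich in MHC class II), the transcription factor Tcf7 5 in 4, Dapl1 5 in 3 and Lef1 3 in 3.

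Naive-type and effector-type transcripts were not split between cells at this depth. At least 1 UMI of Il7r, Tcf7, Lef1, Ccr7 or Dapl1 was found in 19 of the 50 T cells, of which 10 were among the 28 with Ccl5 and 9 among the 22 without. The 4 barcodes rich in MHC class II all had Ccl5, and they held 3 UMIs of Ccr7, 1 of Il7r and 1 of Lef1. Their part in this overlap was not tested. With Nkg7 the overlap was 5 of its 16 barcodes, against 14 of the 34 without it. None of the 7 Thy1 barcodes was among the 16 with Nkg7, and none of the 4 Cd3e barcodes was either. These pairs were picked from many after the values had been seen. With so few barcodes the lack of overlap is a description, and it was not tested.

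Trafficking genes and cytokines gave a similar picture of few molecules. Of 23 trafficking genes 18 had a T cell UMI, 64 in all, and Ly6c2 was the most frequent with 12 UMIs in 7 barcodes, or 288 CPM (149 to 503), 93.8 times (32.6 to 305) the macrophage level of 3.07 CPM. The selectin ligand gene Selplg had 8 UMIs in 6 T cells and the integrin Itgb7 5 in 5, while Cd69, Itgae and Itga1, marks of tissue-resident T cells, had 0, as had Cxcr6. Among 22 cytokine and receptor genes, Ltb (lymphotoxin beta) had 12 UMIs in 10 T cells, or 288 CPM (149 to 503), against 463 CPM in B lineage cells, 66.3 CPM in dendritic cells and 2.56 CPM in macrophages. It was thus shared by both lymphocyte classes, with a T to B ratio of 0.621 (0.293 to 1.23). Il2, Il4, Il10, Ifng and Lta had 0 UMIs, and Il17a had 1.

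Genes of regulatory and exhausted T cells had few UMIs. Foxp3, Il2ra and Ikzf2, which define regulatory T cells, had 0 UMIs, and the list of 10 genes summed to 11 UMIs in 9 barcodes, led by Tnfrsf18 (GITR) with 4 in 4. Of 13 checkpoint and exhaustion genes 4 had a UMI, 12 UMIs in 10 barcodes, at 288 CPM in T cells, against 68.1 CPM in B lineage cells, 440.3 CPM in dendritic cells and 86.9 CPM in macrophages. Nr4a1, an early response gene of receptor signalling, gave 7 of them in 5 barcodes, or 168 CPM, against 40.8 CPM in B lineage cells and 211 CPM in dendritic cells. Ctla4 and Tox had 2 in 2 each and Btla 1, while Pdcd1, Lag3, Havcr2 and Tigit had 0. The limit for each gene at 0 is again 71.9 CPM, so a state carried by few of the 50 cells was not detectable at this depth. Of the genes for gamma-delta and innate-like T cells with values, 2 of 10 had a UMI, and the constant regions of the antigen receptor chains were not analysed here.

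Early response genes were higher than in B lineage cells and, by the median ratio of the list, near the level of dendritic cells. Of 20 such genes 18 had a T cell UMI, at 4195 CPM in T cells, 2505 CPM in B lineage cells, 5018 CPM in dendritic cells and 3437 CPM in macrophages. Without the 4 barcodes rich in MHC class II the summed level in T cells was 3557 CPM. The ratios that follow use all 50 barcodes. Against B lineage cells 9 of 14 were higher and none lower (17.0% and 11.8% of all genes), with a median log2 ratio of 1.23. Against dendritic cells 2 of 16 were higher and 3 lower (19.1% and 14.0% of all genes), with a median of −0.14. The medians over all genes were 0.08 and 0.19. Junb, a subunit of the transcription factor AP1, had 24 UMIs in 19 T cells, or 575 CPM (369 to 856), 3.52 times (1.69 to 7.73) the B lineage level of 163 CPM and 0.973 times (0.595 to 1.53) the dendritic level of 591 CPM. Nfkbia, the NF-kB inhibitor, had 20 UMIs in 17 T cells, or 479 CPM, against 218 CPM in B lineage cells and 483 CPM in dendritic cells. Btg1, an inhibitor of cell growth, had 31 UMIs in 19, or 743 CPM, against 926 CPM in B lineage cells and 378 CPM in macrophages. Its relative Btg2 had 12 UMIs in 6 T cells and stood at 288 CPM over all 50 barcodes and 145 CPM without the 6 barcodes rich in MHC class II or haemoglobin.

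Cell cycle genes were scarce. Mki67, Top2a, Cdk1, Rrm2, Tyms, Mcm3 and Mcm5 had 0 UMIs in the T cells, and Birc5, Ccnb2, Pcna and Mcm6 had 1 or 2 each. Of the 14 genes of the list 7 had a UMI, most of them from chromatin and cytoskeleton genes: Hmgb2 had 17 UMIs in 7 barcodes, 8 of them in 1, and Tubb5 12 in 10. The 983 CPM of the list stood against 613 CPM in B lineage cells, 784 CPM in dendritic cells, 643 CPM in macrophages and 1117 CPM in tumour-like cells.

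Ribosomal protein genes gave a large share of the T cell transcripts. The 8 ribosomal protein genes of one list and the elongation factor Eef1a1 held 4229 UMIs in T cells, or 101383 CPM, against 94752 CPM in B lineage cells, 78325 CPM in dendritic cells, 54856 CPM in macrophages and 47895 CPM in tumour-like cells. Rps27 had 901 UMIs and was seen in all 50 T cells, at 21600.0 CPM, 3.08 times (2.88 to 3.29) the macrophage level and 0.907 times (0.836 to 0.984) that of B lineage cells. Rps24 stood at 9302 CPM, 2.55 times (2.29 to 2.82) the macrophage level, and Rps29 at 17285 CPM, 1.14 times (1.06 to 1.23). Eef1a1 had a T cell to macrophage ratio of 1.03 (0.827 to 1.27). The list also held a pair of thymosins, which bind actin monomers. Tmsb10 had 297 UMIs in 48 T cells (0 to 17 per barcode, median 5), or 7120.1 CPM (6333 to 7978), 4.53 times (4.01 to 5.11) the macrophage level and 2.49 times (2.08 to 2.99) the B lineage level. Its relative Tmsb4x went the other way against macrophages, with 8223 CPM in T cells and 10597 CPM in macrophages, a ratio of 0.776 (0.695 to 0.863).

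MHC class I genes were seen in 23 to 39 of the 50 T cells, at levels above those of tumour-like cells. B2m, the light chain of class I, had 89 UMIs in 39 T cells, or 2134 CPM (1713 to 2626), against 2219 CPM in B lineage cells, 2063 CPM in dendritic cells, 2959 CPM in macrophages and 264 CPM in tumour-like cells. The ratio to macrophages was 0.721 (0.578 to 0.889) and that to tumour-like cells 8.08 (6.47 to 9.96). H2-D1 stood at 1007 CPM in T cells, against 572 CPM in B lineage cells, 808 CPM in dendritic cells and 1136 CPM in macrophages, and was 1.76 times (1.12 to 2.77) the B lineage level. H2-K1 stood at 671 CPM in T cells, against 354 CPM in B lineage cells, 404 CPM in dendritic cells and 435 CPM in macrophages, and was 1.90 times (1.07 to 3.37) the B lineage and 1.54 times (1.02 to 2.24) the macrophage level. After thinning to 500 UMIs, H2-K1 was seen in 26.0% (14.6 to 40.3%) of T cells and 16.1% (9.09 to 25.5%) of B lineage barcodes, and these intervals overlap. Interferon-induced genes were led by Ifi27l2a, with 19 UMIs in 15 T cells, or 455 CPM, against 741 CPM in macrophages, and by Ly6e, with 18 UMIs in 15, or 432 CPM, against 967 CPM in B lineage cells. Isg15 had 7 UMIs, all in 1 barcode rich in haemoglobin, and Irf7, Irf1, Ifit1 and Ifit3 had 0.

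Iron genes bear on the subject named in the series title, iron chelation, although no label gives a chelator to this ascites sample. T cells were low in ferritin next to macrophages. Fth1, the heavy chain of the iron store ferritin, had 128 UMIs in 45 T cells (0 to 14 per barcode, median 2), or 3069 CPM (2560.0 to 3649), against 3812 CPM in B lineage cells, 5193 CPM in dendritic cells, 23952 CPM in macrophages and 6477 CPM in tumour-like cells. Ftl1, the light chain, had 55 UMIs in 35 T cells, or 1319 CPM (993 to 1716), against 20139 CPM in macrophages. T cells thus held 0.128 times (0.107 to 0.152) the Fth1 and 0.0655 times (0.0493 to 0.0852) the Ftl1 of macrophages. Free RNA alone would give 1654 CPM of Fth1 and 746 CPM of Ftl1 in T cells, and with it subtracted from both classes the ratios were 0.0617 and 0.0291.

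Of the other iron genes Pcbp2, which carries iron within the cell and binds RNA, had 12 UMIs in 12 T cells, or 288 CPM, against 299.5 CPM in B lineage cells, 229 CPM in dendritic cells and 232 CPM in macrophages. Trf (transferrin) had 9 UMIs in 8 T cells, or 216 CPM, against 861 CPM in macrophages, with 140 CPM given by free RNA. Hmox1, which breaks down haem, had 5 UMIs in 4 T cells, or 119.9 CPM, against 2488 CPM in macrophages. The transferrin receptor Tfrc, the iron exporter Slc40a1, the importer Slc11a2 and the regulators Aco1, Ireb2 and Fbxl5 had 0 UMIs. Of 14 iron genes 6 had a T cell UMI. Of the 6 passing the filter against macrophages 4 were lower and none higher, against 20.8% and 19.7% of all genes. The median log2 ratio was −2.48, against 0.04 over all genes. Against B lineage cells 1 of 6 was higher and none lower (17.0% and 11.8% of all genes), with a median of −0.19. Against dendritic cells none of 6 was higher and 1 lower (19.1% and 14.0%), with a median of 0.32. Against tumour-like cells 1 of 6 was higher and 3 lower (15.5% and 27.1%), with a median of −0.94. The medians over all genes were 0.08, 0.19 and −0.30.

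Markers of other cell types in the T cells were set beside these results. Of 12 macrophage markers 6 had a UMI, 43 UMIs and 1031 CPM in T cells, against 65257 CPM in macrophages. Apoe stood at 479 CPM, with 572 CPM given by free RNA, and Lyz2 at 312 CPM, with 241 CPM given by free RNA, while Csf1r, Cd68 and Adgre1 had 0. Of 8 B lineage and plasma cell markers with values 3 had a UMI, 4 in all, and Pax5 and Jchain had 0. All 10 neutrophil and mast cell markers were at 0. Of 16 tumour-like markers 12 had a UMI, 191 UMIs in 47 T cells, at 4579 CPM in T cells against 13977 CPM in tumour-like cells, with 2816 CPM given by free RNA. Crip1, which leukocytes also express, gave 115 of them, or 2757 CPM in T cells, against 2206 CPM in B lineage cells and 4560 CPM in dendritic cells, with 1140.1 CPM given by free RNA. Gstm1 had 42 UMIs in 30 T cells, or 1007 CPM, with 908 CPM given by free RNA, and Clu 11 in 10, or 264 CPM, with 212 CPM given by free RNA. Apoe, Lyz2 and Gstm1 are among the markers that scaled the free RNA, so their nearness to it is no check. Of 13 dendritic markers 7 had a UMI, at 6329 CPM in T cells with all 50 barcodes and 695 CPM without the 4 rich in MHC class II, against 64651 CPM in dendritic cells, with 452 CPM given by free RNA. Flt3, Clec9a and Xcr1 had 0. Cd74, the invariant chain of MHC class II, stood at 2973 CPM with all 50 barcodes and 195 CPM without the 4 rich in it, with 214 CPM given by free RNA.

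The 4 barcodes rich in MHC class II held, beside 6 CD3 UMIs that the rule asks for in part, 32 UMIs of Ccl5, 1 of Nkg7 and all 3 of Gzmm. They held no Cd8a, Cd8b1 or Gstm1, and had a median of 1371.5 UMIs. Dendritic cells themselves expressed Ccl5, at 2388 CPM. Without the 4 barcodes Ccl5 was at 7753 CPM in the T cells, and without these and the pair rich in haemoglobin at 7632 CPM. The source of the MHC class II UMIs in them was not tested.

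Barcodes that met the gene conditions for T cells were most frequent near the minimum of depth. With all barcodes of a depth range counted, whatever their genes or mitochondrial share, those that met the gene conditions numbered 25 of 684 from 500 to under 750 UMIs, 14 of 650 from 750 to under 1000, 9 of 1127 from 1000 to under 1500 and 2 of 4974 at 1500 or more. Below the minimum they numbered 10 of 439 from 400 to under 500 UMIs, 3 of 752 from 300 to under 400 and 1 of 3148 from 200 to under 300. A minimum of 500 UMIs therefore cut through the population, and the share of 0.776% is a share of barcodes above that depth. The limits of the rule on C1q, Cd79 and keratin UMIs are the same at any depth, so deeper barcodes can exceed them more easily. The 5 barcodes left out for C1q had a median of 1871 UMIs and the 2 left out for keratin 5324.5, against 754 in the T cells. The part of the rule in the fall with depth was not tested.

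**Figure D5:**
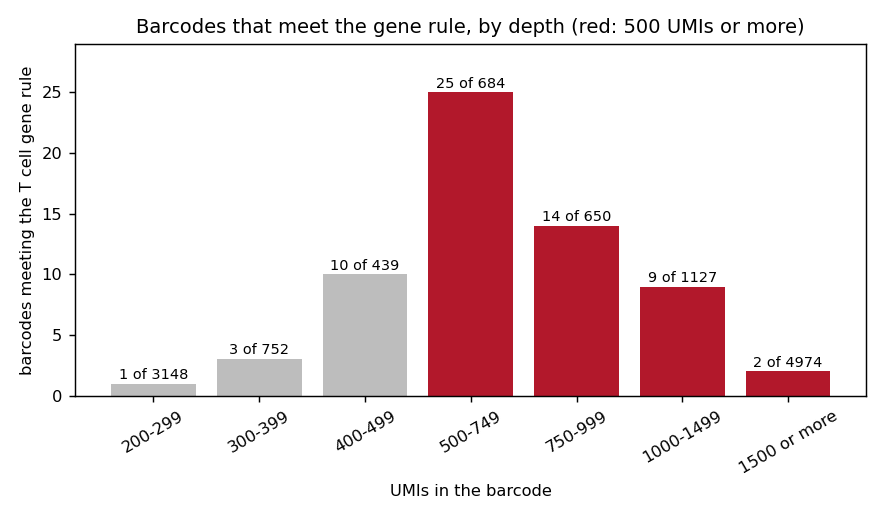
Number of barcodes meeting the gene conditions for T cells by UMIs per barcode, with the number of all barcodes in each depth range above the bars; red bars lie at or above the minimum of 500 UMIs. The depth ranges differ in width, so bar heights are not densities: 25 of 684 barcodes lie in the 250 UMIs above the minimum, 10 of 439 in the 100 UMIs below it, and 14 lie below it in all.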

How the data were processed

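Counts of UMIs per gene and barcode for 1 ascites library were deposited by the authors, with 27998 genes, 737280 barcodes and 35733776 UMIs, per the file headers and values. The aligner is not named, and the genome build is not given in the sources used here. The 8 columns of the bulk table match no sample label and were not used. Levels are UMIs summed over a class as CPM with exact Poisson intervals, shares have Clopper-Pearson intervals, and ratios have exact conditional binomial intervals, all at 95%. Other classes were gated at 3 UMIs of C1q genes (macrophage), 2 of Cd79a and Cd79b (B lineage), 1 of the dendritic genes with 10 of MHC class II, and 3 of the keratin set (tumour-like). Shares were also computed after thinning to 500 UMIs (seed 1). Free RNA profiles came from barcodes of 1 to 50 and of 100 to 200 UMIs. No doublets were removed. The code was tested on simulated data.

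The members and gene lists were chosen with earlier results of these data known. Named genes were taken from list genes with at least 10 T cell UMIs, the 12 leading genes outside the rule with at least 20, and subset genes at 0; genes with fewer UMIs were chosen after their values were seen. A planned comparison of CD8 with CD4 barcodes was not made, since 1 barcode had Cd4. Antigen receptor and immunoglobulin constant genes were not analysed here. Positions are from GENCODE M21, which held 27645 of the gene identifiers. Promoter entries were found for 9 of 14 symbols looked for. Tools were Python 3.11.15, numpy 2.4.6, scipy 1.17.1, pandas 2.3.3, scanpy 1.11.5 (Scrublet) and matplotlib 3.10.9.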

Additional observations from a re-analysis of the deposited data

Results flagged for a closer look

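T cell transcripts appeared in barcodes below the depth filter, which the comparisons do not use. Of 4339 barcodes with 200 to under 500 UMIs, 14 (0.323%, 0.177 to 0.541%) met every gene condition for T cells, and 12 of these also had 200 or more genes. They held 13 Ccl5 UMIs in 3 barcodes (2249 CPM over 5781 UMIs), 3 Nkg7 UMIs in 3 barcodes and 1 Cd8b1 UMI, whereas the 50 T cells above the filter had Ccl5 at 7456 CPM. Of the 58252 barcodes with 100 to under 200 UMIs, 0 met the conditions. That allows a share of up to 0.00515% by the limit of 3 counts, or 0.00633% by the exact interval. The rule asks for 2 UMIs of its genes at any depth.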

How the results depend on the processing

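Of 387 values recomputed under 15 alternatives, 342 stayed within their range, 45 moved beyond it and 0 were labelled as changed in direction. The range was the counting interval for levels, shares and ratios. Numbers of barcodes have no such interval and were labelled without one. Levels, shares and numbers have no direction to change, and a ratio whose interval spans 1 has no set direction. The 0 is therefore no check on those values. The number of T cells depended most on depth and on the rule. A minimum of 1000 UMIs left 11 T cells (0.197% of barcodes passing), with 36.4% CD8, 13.4% free RNA and Ccl5 at 8535 CPM. A minimum of 750 UMIs left 25 (0.418%), with 36.0% CD8 and 16.3% free RNA. A sum of 3 over the 8 genes left 29 (0.450%) and 3 barcodes below 500 UMIs. Requiring 2 CD3 UMIs left 23 (0.357%), with 34.8% CD8, Ccl5 at 9475 CPM and 7 barcodes below 500 UMIs. Allowing no C1q or keratin UMI left 9 barcodes below 500 UMIs. Removal of doublets and other mitochondrial limits moved none of these values beyond its range. Scrublet marked none of the 50 T cells and their highest mitochondrial share was 3.23%. Doublet removal and a lower mitochondrial limit of 10% therefore could not take out any of them, and their unchanged levels are no check. Cd74 moved to 195 CPM without the 4 barcodes rich in MHC class II, an alternative chosen after seeing the data. No replicate could be left out of 1 library. No paired analysis was possible because the replicate numbers belong to the bulk samples, whose columns could not be placed.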
